A study of Mus musculus with 18 samples.

Results

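The oxidative phosphorylation genes described here are the subunits of respiratory complexes I to V, encoded in the nucleus or in mitochondrial DNA, together with a few assembly factors that carry the same name stems. They were taken by name from the GENCODE M21 annotation: every protein-coding gene whose symbol starts with Nduf, Uqcr, Atp5, Cox4i, Cox5, Cox6, Cox7 or Cox8, the genes Sdha, Sdhb, Sdhc and Sdhd, and the mitochondrial genes whose symbols start with mt-Nd, mt-Co, mt-Atp or mt-Cytb. This gave 107 gene IDs of the 56748 in the count files, 94 nuclear and 13 mitochondrial, with 106 symbols because Atp5o is listed under 2 IDs. The choice used names only and no measured value. The samples were CD8 T cells sorted by flow cytometry from the spleens of mice whose genotype is given as WT, and RNA was taken from the freshly isolated cells. ND mice had normal diet for 12 weeks, HFD mice had high fat diet for 12 weeks, and SW mice were switched from 6 weeks of high fat diet to 6 weeks of normal diet. Each diet had 6 libraries. The age and sex of the mice, the strain, and whether libraries came from separate mice are not given in the labels, so p-values measure the spread between these samples, which may be technical in part.

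Oxidative phosphorylation is carried out in the inner mitochondrial membrane. Complexes I and II pass electrons to ubiquinone, complex III passes them on to cytochrome c and complex IV to oxygen, while complexes I, III and IV pump protons that drive the ATP synthase, complex V. Complexes I, III, IV and V are each assembled from subunits of both genomes, and complex II, which is also succinate dehydrogenase of the tricarboxylic acid cycle, is wholly nuclear encoded. Resting CD8 T cells draw most of their ATP from this pathway, activated ones add aerobic glycolysis, and memory cells are known for a large spare respiratory capacity.

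By role, complex I had 14 core subunits that carry out electron transfer and proton pumping, 7 from each genome, 29 supernumerary subunits and 8 assembly factors named Ndufaf. Complex II had 4 subunits, complex III had 8 nuclear subunits and mt-Cytb, and complex IV had 11 nuclear and 3 mitochondrial subunits, 8 isoforms known from other tissues and the supercomplex factor Cox7a2l. Complex V had 17 nuclear IDs for subunits, the second Atp5o ID among them, 2 mitochondrial subunits and Atp5s. The filter on low counts passed 100 members, 88 nuclear and 12 mitochondrial. The 7 left out were Cox7b2, Cox8c and the second Atp5o ID with 0 counts over all 18 libraries, Cox4i2 with 2, Ndufa4l2 with 5, Cox8b with 15 and mt-Atp8 with 150.

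Total counts ran from 11947339 to 16398340 per library. The summed level of 6 CD8 T cell markers (Cd8a, Cd8b1, the Cd3 chains and Trac) lay between 4600 and 5119 CPM (counts scaled by library size, as edgeR computes CPM) in every library, so the labelled cell type was present. The 5 CD4 T cell markers summed to 9.24 to 14.4 CPM in ND, 7.85 to 13.1 in SW and 8.69 to 15.3 in HFD, and Cd4 itself averaged 0.27, 0.51 and 0.84 CPM. Summed erythroid markers ranged from 14.3 to 40.2 CPM in ND, from 30.3 to 85.4 in SW and from 11.3 to 325 in HFD, and 0 of their 6 tested genes were called in any comparison, although all 6 had an unadjusted p under 0.05 in HFD against ND. The B cell markers summed to 469 to 523 CPM in ND, 502 to 603 in SW and 526 to 648 in HFD, almost all of it Ighm, which was called higher in HFD than in ND. Summed monocyte, macrophage and neutrophil markers were at 22.1 to 29.57 CPM in ND, 17.9 to 32.4 in SW and 29.57 to 37.7 in HFD. Replication-dependent histone genes, most of whose messenger RNAs lack a poly-A tail, summed to 12.4 to 19.8 CPM in ND, 15.99 to 23.5 in SW and 20.1 to 31.7 in HFD, with no overlap of ND and HFD. The part of these shifts in the results below was not tested. In bulk RNA, a change in the mix of cell states and a change of RNA per cell cannot be told apart.

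Sequence bears on what the mitochondrial genes can show, because mouse chromosome 1 holds a long nuclear copy of mitochondrial DNA at chr1:24611535-24616197 (GRCm38). It carries annotated pseudogenes of 7 of the 13 members, from the end of mt-Co1 through mt-Co2, mt-Atp6, mt-Co3, mt-Nd3 and mt-Nd4l to the first part of mt-Nd4. For mt-Nd1, mt-Nd2, mt-Nd5, mt-Nd6, mt-Cytb and mt-Atp8 no pseudogene is annotated there. However, mt-Atp8 lies between mt-Co2 and mt-Atp6, which both have one, and the chromosome 1 bases between those copies were not compared with it. The copies are identical to the gene over all 681 bases of mt-Co2 (Gm28661), 678 of mt-Atp6 (Gm10925), 783 of mt-Co3 (Gm28437) and 294 of mt-Nd4l (Gm10222). Gm28438 matched 344 of 345 bases of mt-Nd3, differing by T3C, and Gm29216 matched 482 of 483 bases, 31.3% of mt-Co1, differing by A1066T (positions from 1 at the gene's first base, the mitochondrial base named first). Gm28439 matched 876 of 876 bases, 63.6% of mt-Nd4. The windows below, from the GENCODE M21 transcripts, show how little separates gene and copy: capitals mark the single base by which they differ, and the mt-Co2 window is shared by both.
mt-Nd3: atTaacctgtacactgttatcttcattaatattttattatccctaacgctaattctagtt
Gm28438: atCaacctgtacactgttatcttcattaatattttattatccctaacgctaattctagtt
mt-Co1: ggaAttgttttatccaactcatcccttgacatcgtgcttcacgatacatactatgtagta
Gm29216: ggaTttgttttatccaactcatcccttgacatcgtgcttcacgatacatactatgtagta
mt-Co2 and Gm28661: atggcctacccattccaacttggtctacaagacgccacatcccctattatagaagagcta

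The 13 mitochondrial genes fell into separate ranges of level per length. On the FPKM scale, counts scaled by gene length and library size as deposited, the mean over 18 libraries was 6576 ± 657 (SD) for mt-Co1, the catalytic subunit of complex IV, 3115 ± 423 for mt-Cytb of complex III and 2826 ± 402 for the complex I subunit mt-Nd1. The other complex I subunits mt-Nd2, mt-Nd6, mt-Nd4 and mt-Nd5 stood at 1710, 1207, 1160 and 812 FPKM. The 6 genes from mt-Co2 to mt-Nd4l were far below these: mt-Co2 at 109 ± 14.5, mt-Co3 at 39.3 ± 5.02, mt-Atp6 at 31.4 ± 7.29, mt-Nd4l at 5.79 ± 1.80, mt-Nd3 at 4.83 ± 1.78 and mt-Atp8 at 2.97 ± 1.08. Over the 18 libraries the ranges of the 2 groups did not overlap, and the lowest gene of the first group was 7.48 times the highest of the second. The 6 genes held 0.591% of all counts on mitochondrial members.

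The 5 genes with a full-length copy had counts on the copy as well, from fewer than on the gene for mt-Co3 to many more for mt-Nd3. Over 18 libraries mt-Co2 had 18091 counts and Gm28661 18860, mt-Atp6 had 5231 and Gm10925 6619, mt-Co3 had 7508 and Gm28437 4852, mt-Nd4l had 419 and Gm10222 800, and mt-Nd3 had 413 and Gm28438 5139. With the copy's FPKM added, mt-Co2 reached 222, still below every gene of the higher group. By contrast, mt-Co1 had 2485495 counts against 3064 on Gm29216, and mt-Nd4 389954 against 1409 on Gm28439. How reads that match both places were counted is not given in the sources used here. For mt-Co2, mt-Atp6, mt-Co3, mt-Nd3 and mt-Nd4l the gene and its copy are therefore reported as uncertain. mt-Atp8, which lies between mt-Co2 and mt-Atp6, is reported as near the floor, and whether its reads also match chromosome 1 was not examined. mt-Nd5 and mt-Nd6 overlap on opposite strands, and without a statement on strand their reads cannot be told apart where they overlap. Values over all 12 tested mitochondrial genes therefore include 5 uncertain ones, and each comparison is also given for the 7 others, mt-Co1, mt-Cytb, mt-Nd1, mt-Nd2, mt-Nd4, mt-Nd5 and mt-Nd6. Of these 7, mt-Co1 and mt-Nd4 match a copy over 31.3% and 63.6% of the gene. Their levels are uncertain in that part.

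**Figure D1:**
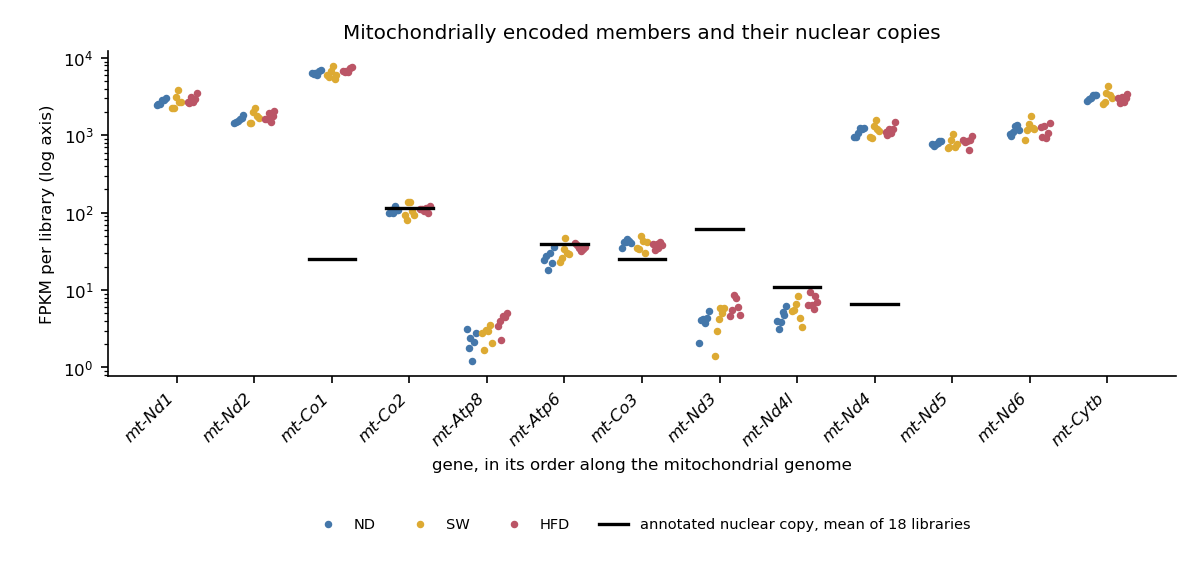
Level of each mitochondrially encoded member and of its nuclear copy on chromosome 1 (FPKM, log axis), in gene order along the mitochondrial genome. Points are libraries, coloured by diet, and black lines are means of the copies over 18 libraries; the 6 genes from mt-Co2 to mt-Nd4l have means of 2.97 to 109 FPKM, against 812 to 6576 for the other 7.

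Among nuclear subunits, levels per length differed far more between genes than between diets. Of 36 complex I subunits tested, mean FPKM ran from 1.57 for Ndufb2 to 119 for Ndufa2, with a median of 32.8. Complex II ran from 21.5 for the membrane anchor Sdhc to 63.9 for the flavoprotein Sdha, complex III from 34.1 for the core protein Uqcrc1 to 148 for the hinge protein Uqcrh, complex IV from 24.5 for Cox5a to 271 for Cox6a1, and complex V from 9.41 for Atp5g1 to 197 for Atp5a1, the alpha subunit of the catalytic head. Medians were, in the order I, II, III, V and IV, 32.8, 45.01, 50.4, 68.9 and 72.4 FPKM, and the ranges of all complexes overlapped. The highest nuclear member was Cox7a2l at 318 FPKM, a factor that links complexes III and IV, followed by Cox6a1, Cox8a at 266, Atp5a1, Cox4i1 at 187 and Atp5b, the catalytic beta subunit, at 168.

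**Figure D2:**
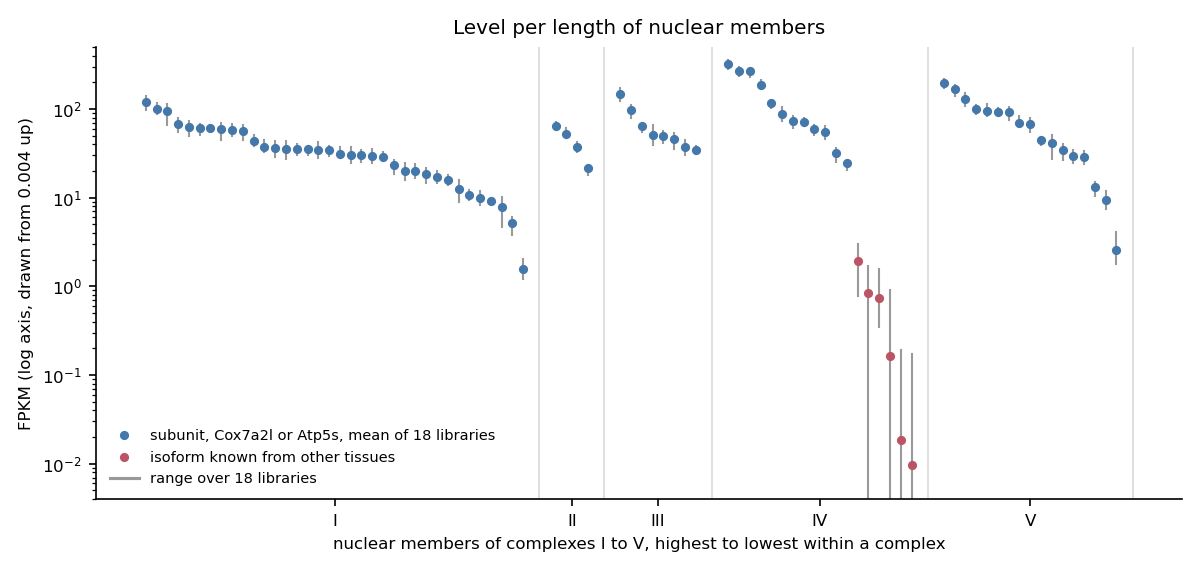
Level per length of the nuclear members other than assembly factors, by complex (FPKM, log axis; means of 0 are not drawn), 1 point per gene for the mean over 18 libraries, with a grey line from the lowest to the highest library; isoforms known from other tissues are in red. Subunits of the 5 complexes overlap in range, and Cox7a2l, at 318 FPKM, is the highest.

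Several subunits come in paralogous versions, which held unequal shares of their family's FPKM on all diets. Of the 3 genes for subunit c of complex V, whose mature proteins are the same, Atp5g2 held 53.9%, 54.0% and 54.1% of the family's FPKM in ND, SW and HFD, Atp5g3 held 40.2%, 40.6% and 40.8%, and Atp5g1 held 5.95% ± 0.50 (SD, n = 6), 5.35% ± 0.422 and 5.05% ± 0.789. These shares depend on the lengths behind the FPKM. By count the gap was smaller, with 11279 counts on Atp5g1, 38272 on Atp5g2 and 37405 on Atp5g3 over 18 libraries. The pseudogene Gm10039, 99.8% identical to Atp5g1 where aligned, held a further 5648. In the Cox7a family, Cox7a2l held 84.3%, 83.9% and 83.6%, the widely expressed Cox7a2 15.2%, 15.5% and 15.9%, and the heart and muscle form Cox7a1 0.492%, 0.539% and 0.515%. The muscle form Cox6a2 held 0.236%, 0.413% and 0.278% of the FPKM it shares with Cox6a1, and the testis form Cox6b2 held 0.503%, 0.701% and 0.730% beside Cox6b1. Cox4i2, the form of subunit 4 known from lung, and Ndufa4l2, known from hypoxic cells, had 2 and 5 counts in all. No paralog of restricted tissues took over from the common form on any diet.

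In HFD against ND, 1 of the 100 tested members changed: Ndufab1 fell. This gene encodes the mitochondrial acyl carrier protein, a supernumerary subunit of complex I that also serves mitochondrial fatty acid synthesis and iron-sulfur cluster assembly. Its level was 35.9, 37.2 and 40.5 CPM (lowest, median and highest of 6 libraries) in ND, 32.6, 35.6 and 36.5 in SW, and 25.1, 29.7 and 34.1 in HFD. All 6 HFD libraries lay below all 6 ND libraries, and SW overlapped both. The log2 fold change was -0.33 ± 0.070 (SE; edgeR quasi-likelihood test, Benjamini-Hochberg adjusted p = 0.0173). The call held in 18 of 18 analyses that left out 1 library, with adjusted p between 0.0101 and 0.0434, and was lost in replicates 3 to 6 alone (-0.32, adjusted p = 0.0649).

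Over all genes tested, 0.665% were called higher and 0.957% lower in HFD than in ND, so 0 of 100 members higher and 1 of 100 lower are near the background. At an unadjusted p under 0.05, 6 members were higher and 5 lower, where the background was 7.79% higher and 7.09% lower. The members moved little in size as well: 90 of 100 had a log2 fold change within 0.2 of 0, with a median SE of 0.0773 and a median 95% interval of 0.152 to either side. The median over the 88 nuclear members was -0.00 and over the 12 mitochondrial ones 0.10, beside 0.01 over all genes.

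Ndufab1 lies at chr7:122085403-122101886 on the minus strand (GRCm38). A processed pseudogene, Ndufab1-ps at chr7:80507787-80508254, matched its transcript in 466 of 469 aligned columns, with 1 gap column and the substitutions C88T and C307T (positions from 1 at the first coding base, the base of Ndufab1 first). The coding windows around both substitutions, in which capitals mark the base that differs, are given because no other substitution was found. Whether the gap column lies in the coding sequence was not determined.
Ndufab1, coding bases 59 to 118: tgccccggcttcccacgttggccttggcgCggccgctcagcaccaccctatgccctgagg
Ndufab1-ps, same window: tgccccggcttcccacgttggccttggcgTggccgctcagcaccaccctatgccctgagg
Ndufab1, coding bases 278 to 337: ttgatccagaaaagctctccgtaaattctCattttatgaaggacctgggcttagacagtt
Ndufab1-ps, same window: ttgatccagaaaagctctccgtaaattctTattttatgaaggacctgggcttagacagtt

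The pseudogene averaged 3.28 CPM in ND, 3.50 in SW and 3.93 in HFD. Its log2 fold change in HFD against ND was 0.26 ± 0.19 (SE; edgeR adjusted p = 0.544), opposite in sign to that of Ndufab1. With a second copy, pseudogene counts came to 20.7% of the counts on Ndufab1, so reads shared among them make its level uncertain. Gm44986, annotated on the other strand inside the gene, averaged 1.03 CPM with a log2 fold change of 0.05.

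The remaining nuclear members with an unadjusted p under 0.05 in HFD against ND were named from that count after the values were seen, or by the rule for named genes, and none passed the adjusted threshold. Ndufa5, a supernumerary subunit of the peripheral arm of complex I, had 27.3, 32.5 and 37.1 CPM in ND, 25.05, 31.3 and 36.2 in SW and 24.4, 27.7 and 29.8 in HFD, with a log2 fold change of -0.24 ± 0.088 (SE; edgeR adjusted p = 0.179). HFD and ND overlapped. The call was gained with the replicate number as a block (adjusted p = 0.0368) or the 2 replicate sets described below as a factor (0.0453). Ndufs5, another supernumerary subunit, had a log2 fold change of -0.17 (edgeR adjusted p = 0.274).

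In complex V, the values below 0 were those of Atp5g1 and of Atp5k, subunit e, which helps ATP synthase form dimers. Atp5g1 ran over 42.6, 48.0 and 57.2 CPM in ND, 39.97, 43.5 and 45.9 in SW and 35.5, 41.4 and 47.7 in HFD, with log2 fold changes of -0.23 ± 0.079 in HFD (edgeR adjusted p = 0.147) and -0.17 ± 0.079 in SW (0.700), both against the same ND libraries. Its pseudogene Gm10039 held counts equal to 50.1% of its own. Atp5k had 24.2, 26.5 and 30.8 CPM in ND, 16.4, 23.5 and 27.4 in SW and 18.001, 23.8 and 25.8 in HFD, and a log2 fold change of -0.22 ± 0.10 in HFD (edgeR adjusted p = 0.328).

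Sdha of complex II, Atp5c1, the gamma subunit of complex V, and Uqcrc2, a core protein of complex III, had values above 0. Sdha was at 232, 246 and 261 CPM in ND, 237, 249 and 277 in SW and 250, 266 and 278 in HFD, with a log2 fold change of 0.11 ± 0.048 (edgeR adjusted p = 0.295). Atp5c1 stood at 0.12 ± 0.051 (0.276) and Uqcrc2 at 0.11 ± 0.049 (0.259). In each of the 3 genes HFD overlapped ND.

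By complex and role, medians of the log2 fold change in HFD against ND stayed within 0.1 of 0 among nuclear genes. The 7 nuclear core subunits of complex I had a median of 0.04, with 5 above 0, and the 29 supernumerary subunits a median of -0.03, with 9 above 0. All 4 complex II subunits were above 0, with a median of 0.07, and 2 of 8 complex III subunits, with a median of -0.04. Complex IV subunits had 5 of 11 above 0 and complex V subunits 7 of 16, both with a median of -0.01. The 8 Ndufaf assembly factors had 4 above 0 and a median of -0.04. Over all genes 52.4% were above 0.

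**Figure D3:**
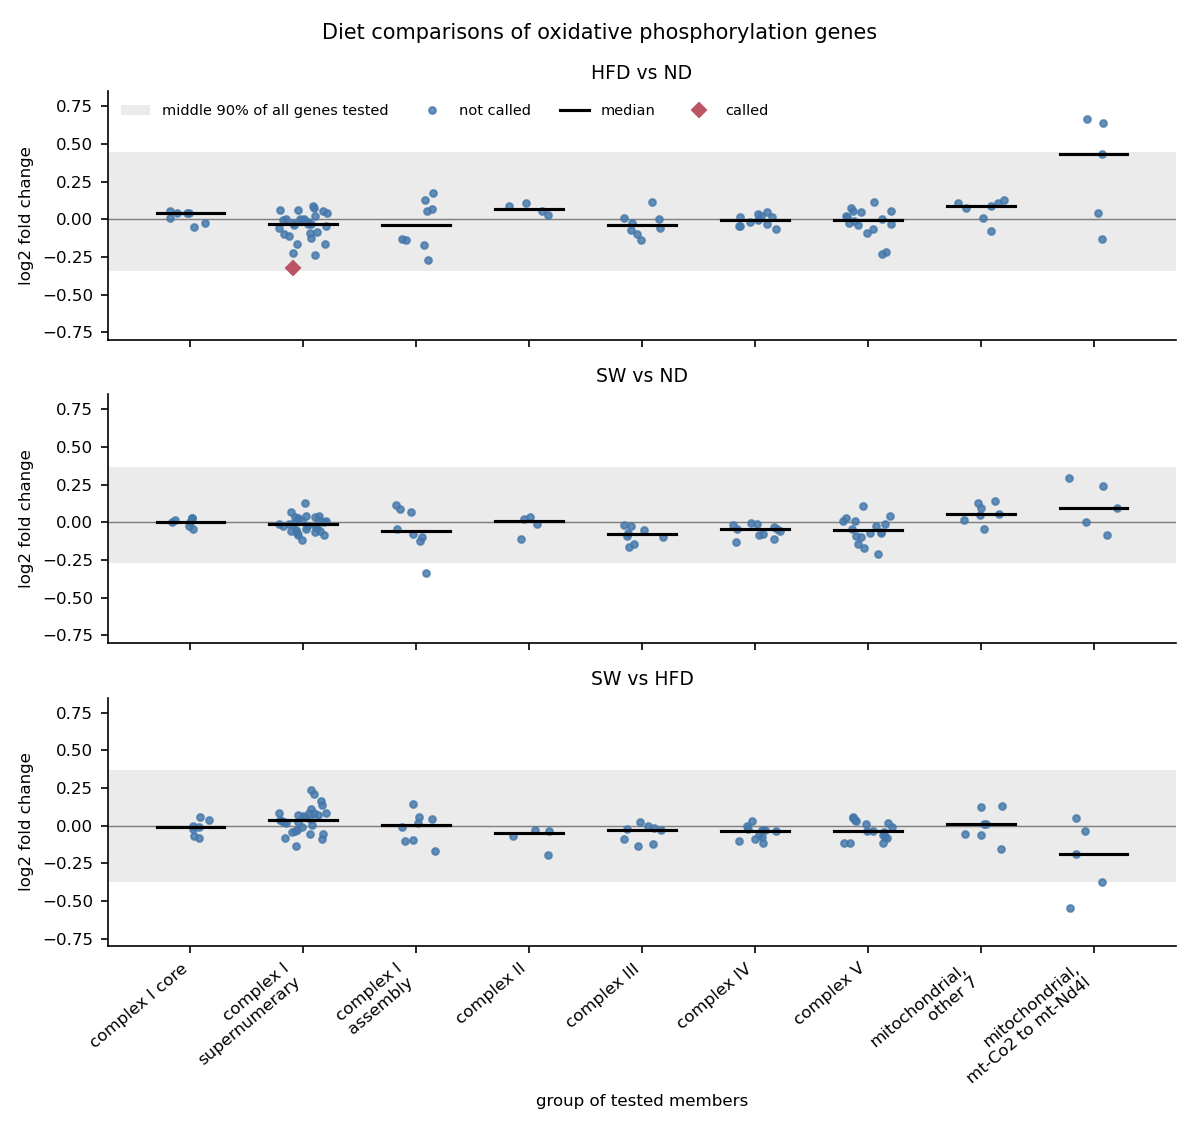
Log2 fold change of tested members in HFD against ND, SW against ND and SW against HFD, by complex and by genome. A line marks the median of each group, and diamonds are called at an adjusted p under 0.05. Cox7a2l, Atp5s and the complex IV isoforms known from other tissues are not drawn. Ndufab1 in HFD against ND, at -0.33, is the single call.

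Of the mitochondrial genes, 0 of 12 tested were called in HFD against ND by edgeR, with 3 at an unadjusted p under 0.05, and DESeq2 and limma, which also tested mt-Atp8, called none, with 4 each at that p. The 7 genes without a full-length nuclear copy had log2 fold changes from -0.08 for mt-Cytb to 0.13 for mt-Nd2, with 6 above 0 and a median of 0.09. mt-Co1 had 8955, 9539 and 10447 CPM in ND, 8226, 8888 and 11680 in SW and 9859, 10099 and 11551 in HFD, a log2 fold change of 0.11 ± 0.071 (SE; edgeR adjusted p = 0.491). mt-Nd1 stood at 0.11 ± 0.107 (0.698) and mt-Nd4 at 0.09 ± 0.124 (0.804). Diets overlapped for all 3.

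The 3 mitochondrial genes with an unadjusted p under 0.05 were all among those with an identical or nearly identical copy on chromosome 1. mt-Nd4l had 0.907, 1.246 and 1.77 CPM in ND and 1.63, 1.92 and 2.72 in HFD, with a log2 fold change of 0.67 ± 0.25 (edgeR adjusted p = 0.188). mt-Nd3 had 0.689, 1.42 and 1.83 CPM in ND and 1.56, 1.95 and 2.85 in HFD (0.64 ± 0.29; 0.304), and mt-Atp6, the proton channel subunit of complex V, 11.9, 17.1 and 24.0 in ND and 20.9, 23.5 and 26.8 in HFD (0.43 ± 0.15; 0.169). Their copies Gm10222, Gm28438 and Gm10925 had log2 fold changes of 0.12, 0.14 and 0.20, none called. mt-Co2 and mt-Co3, which lie in the same stretch, stood at 0.04 and -0.13. All diets overlapped in these genes.

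Returning to normal diet was examined in SW against ND. Here 0 of 100 members were called by edgeR, and DESeq2 (6 at an unadjusted p under 0.05) and limma (4) called none either, beside 0.0073% of all genes called higher and 0.0073% called lower. At an unadjusted p under 0.05, 0 members were higher and 7 lower, against backgrounds of 3.44% higher and 3.37% lower, and 94 of 100 log2 fold changes lay within 0.2 of 0. The median was -0.03 over nuclear members, with 30 of 88 above 0, and 0.07 over mitochondrial ones, with 10 of 12 above 0. Over the 7 mitochondrial genes without a full-length copy it was 0.05, with 6 above 0. Over all genes it was 0.00, with 50.9% above 0.

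The 7 lower members came from complexes III, IV and V and from the complex I assembly factors, and were named from that count. Uqcrfs1, the Rieske iron-sulfur protein of complex III, had 79.9, 88.7 and 91.3 CPM in ND, 73.7, 80.4 and 82.9 in SW and 76.5, 86.5 and 93.2 in HFD, with a log2 fold change of -0.14 ± 0.055 in SW (SE; edgeR adjusted p = 0.562). Cox5a, a subunit of complex IV, had 50.5, 51.3 and 53.2 CPM in ND, 41.4, 47.3 and 51.7 in SW and 48.7, 50.9 and 53.3 in HFD (-0.13 ± 0.054; 0.635). SW reached lower than ND in both genes, and the diets overlapped. Uqcrb of complex III stood at -0.17, Cox6b1 of complex IV at -0.11, Atp5l of complex V at -0.14, Atp5g1 at -0.17 and Ndufaf6 at -0.34 ± 0.145, with edgeR adjusted p between 0.637 and 0.733.

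In sign, 0 of 8 complex III subunits and 0 of 11 complex IV subunits were above 0 in SW against ND, with medians of -0.08 and -0.04, and 5 of 16 complex V subunits, with a median of -0.05. Nuclear core subunits of complex I had 5 of 7 above 0 (median 0.01) and supernumerary ones 12 of 29 (-0.01). Complex II had 2 of 4 above 0 (0.01) and the Ndufaf factors 3 of 8 (-0.06). These counts have no test, since the subunits of a complex are measured in the same libraries, and no single value passed the adjusted threshold.

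The sign of the median over the 12 mitochondrial genes in SW against ND rested on 1 library. SW replicate 4 had the highest share of counts on mitochondrial members of all 18 libraries, and without it the median in SW against ND was -0.03 in place of 0.07, while in replicates 3 to 6 alone it was 0.14.

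In SW against HFD, edgeR called 0 of 100 members, as did DESeq2 (9 at an unadjusted p under 0.05) and limma (13), beside 0.0584% of all genes called higher in SW and 0.0657% called lower. At an unadjusted p under 0.05, 2 members were higher and 8 lower, with backgrounds of 5.43% and 5.64%. The 2 higher were complex I supernumerary subunits: Ndufab1, at 0.21 ± 0.070 (SE; edgeR adjusted p = 0.258), and Ndufc1, at 0.23 ± 0.108 (0.424). The fall of Ndufab1 in HFD was thus not matched by a call in SW against either diet, and its SW level, with a log2 fold change of -0.12 ± 0.070 against ND (0.820), lay between them.

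The 8 lower members were Sdhd, the small membrane anchor of complex II, Uqcrc2 and Uqcrfs1 of complex III, Cox5a and mt-Co1 of complex IV, Atp5a1 and Atp5b of the catalytic head of complex V, and Ndufa9 of complex I. Sdhd had 56.2, 57.0 and 63.6 CPM in SW, 59.9, 67.3 and 71.2 in HFD and 58.4, 61.4 and 73.3 in ND, with a log2 fold change of -0.20 ± 0.059 (SE; edgeR adjusted p = 0.192). Uqcrc2 had 104, 119 and 122 CPM in SW, 122, 128 and 138 in HFD and 114, 116 and 126 in ND (-0.14 ± 0.049; 0.287). SW and HFD did not overlap for Uqcrc2, although the margin was below 1 CPM, and they overlapped for Sdhd.

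Atp5a1 ran over 527, 576 and 615 CPM in SW and 596, 622 and 657 in HFD (-0.11 ± 0.049; edgeR adjusted p = 0.386), and Atp5b over 589, 648 and 740 in SW and 691, 714 and 752 in HFD (-0.12 ± 0.053; 0.416). mt-Co1 stood at -0.15 ± 0.071 (0.418) and Ndufa9 at -0.14 ± 0.060 (0.396). By group, medians were -0.02 over nuclear members, with 37 of 88 above 0, and -0.05 over mitochondrial ones, with 5 of 12 above 0, beside 0.00 over all genes, with 48.7% above 0. The 7 mitochondrial genes without a full-length copy had a median of 0.01, with 4 above 0. The nuclear median was 0.01 and that of the 12 mitochondrial genes 0.06 in replicates 3 to 6 alone, so both changed sign. Complex II had 0 of 4 subunits above 0 (median -0.05), complex III 1 of 8 (-0.03), complex IV 2 of 11 (-0.04), complex V 6 of 16 (-0.04), and complex I supernumerary subunits 20 of 29 (0.04). SW against ND and SW against HFD share the SW libraries, and the HFD and SW comparisons with ND share the ND libraries, so their values are given side by side only.

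**Figure D4:**
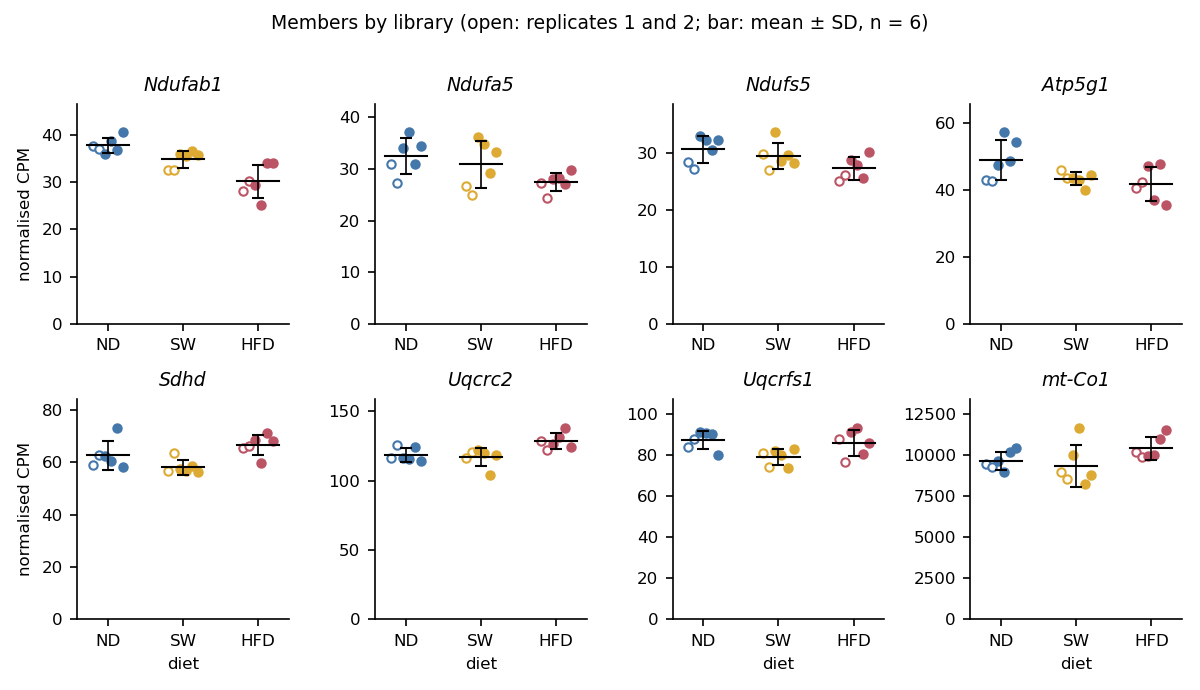
Levels of 8 members in each library (CPM, linear axes from 0), by diet, with bars for the mean and SD of 6 libraries and open points for replicates 1 and 2. Ndufab1 is the member in which HFD lies wholly below ND; Uqcrc2 parts SW from HFD by under 1 CPM, and in the other genes drawn the diets overlap.

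Summed over genes, the balance of the genomes was alike on all diets. Mitochondrial members held 1.97%, 2.07% and 2.26% of counts (lowest, median and highest) in ND, 1.85%, 2.01% and 2.72% in SW and 1.95%, 2.19% and 2.46% in HFD. Means were 2.09% ± 0.112 (SD, n = 6), 2.12% ± 0.335 and 2.17% ± 0.185, and without the highest library SW averaged 2.00%. Nuclear members held 0.762% to 0.829% in ND, 0.728% to 0.819% in SW and 0.762% to 0.806% in HFD. The count ratio of mitochondrial to nuclear members was 2.54, 2.59 and 2.77 in ND, 2.45, 2.61 and 3.33 in SW and 2.44, 2.78 and 3.05 in HFD, and the diets overlapped in every one of these measures. Messenger RNA was selected by its poly-A tail, so shares of mitochondrial RNA, whose tails are short, describe these libraries and not the cells' total RNA.

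The members differed more between sets of replicates than between diets. Replicates 1 and 2 of each diet stood apart from replicates 3 to 6 over the whole table, and because the sets were noticed in these data, their contrast is given as a description. The labels do not say what a number marks. In replicates 1 and 2, 47 of 88 nuclear members were called lower and 3 higher (Sdha, Atp5a1 and Atp5b, at 0.10, 0.10 and 0.11), and mt-Nd1, mt-Nd2, mt-Nd3, mt-Nd4 and mt-Cytb were called lower. The background was 8.31% of all genes lower and 10.4% higher. The median log2 difference was -0.16 over nuclear and -0.21 over mitochondrial members, beside -0.01 over all genes, and among called members the values farthest from 0 were those of mt-Nd3 (-0.70), mt-Nd4 (-0.35), the complex III subunit Uqcrq (-0.33) and Ndufa12 (-0.31). Ndufab1 stood at -0.08 in this contrast (edgeR adjusted p = 0.369). The 47 nuclear genes called lower had a median length, as implied by count and FPKM, of 1513 bases, near the 1636 of all 88 tested nuclear members. The 3 called higher had a median of 3980 bases. The part of length in the result was not tested.

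Within replicates 3 to 6 the summed nuclear level of HFD lay inside the range of ND, and in replicates 1 and 2 both HFD libraries were above both ND libraries. It was 7556 and 7601 CPM in replicates 1 and 2 of ND, 7238 and 7412 in SW and 7626 and 7711 in HFD. In replicates 3 to 6 it ran from 7915 to 8317 in ND, 7453 to 8200 in SW and 7998 to 8277 in HFD. Each diet has 2 libraries of the first kind and 4 of the second, so the sets are balanced over the diets.

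**Figure D5:**
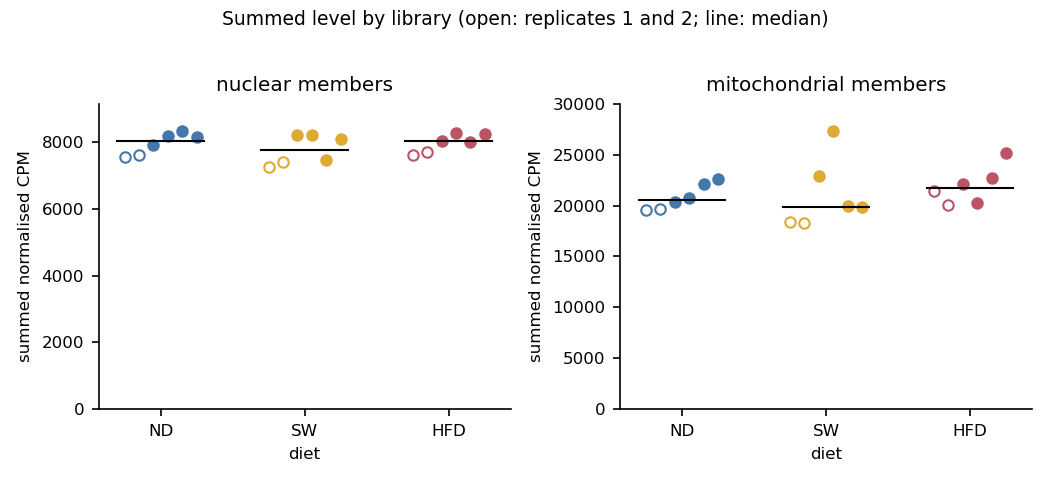
Summed level of nuclear and of mitochondrial members in each library (CPM), by diet, with open points for replicates 1 and 2, filled points for replicates 3 to 6 and a line at the median. Replicates 1 and 2 are the lower ones for nuclear members within every diet, and the diets overlap in both panels.

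Other genes of mitochondrial biology were counted by lists. Over all lists, edgeR called 4 of 217 tested genes in HFD against ND, beside 0.665% of all genes called higher and 0.957% lower. At an unadjusted p under 0.05 there were 22, beside 7.79% of all genes higher and 7.09% lower. The lists together were thus near the background, and the genes below are given as single values. In HFD against ND, 1 of 8 carrier and channel genes rose: Ucp2, an inner membrane carrier of the uncoupling protein family, had 519, 542 and 583 CPM in ND, 518, 568 and 617 in SW and 579, 631 and 664 in HFD, a log2 fold change of 0.20 ± 0.050 (SE; edgeR adjusted p = 0.0381). HFD and ND overlapped at their edges, and the call held in 9 of 18 analyses without 1 library, with adjusted p up to 0.104. Of 77 tested mitochondrial ribosomal proteins, Mrpl51 of the large subunit fell (33.4, 37.7 and 41.6 CPM in ND, 28.1, 31.5 and 33.0 in HFD; -0.27 ± 0.070, 0.0466), with no overlap, but it was called in 6 of 18 such analyses. The ribosome list had 26 of 77 genes above 0 and a median of -0.05, and DESeq2 also called Mrps36 in it.

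Among 15 genes for processing, stability and translation activation of mitochondrial RNA, 2 fell, both of the FASTK family of mitochondrial RNA-binding proteins. Fastkd3 had 14.2, 15.3 and 16.8 CPM in ND, 11.1, 12.98 and 14.97 in SW and 9.42, 11.01 and 14.7 in HFD (-0.42 ± 0.105; edgeR adjusted p = 0.0397; called in 9 of 18 analyses without 1 library). Fastkd5, which acts in the maturation of mitochondrial RNAs such as that of mt-Co1, had 4.95, 7.68 and 9.27 CPM in ND, 5.96, 6.77 and 8.84 in SW and 4.28, 5.01 and 6.59 in HFD (-0.57 ± 0.149; 0.0493; 5 of 18). HFD overlapped ND in both, and 4 of the 15 genes were above 0, with a median of -0.07. DESeq2 called Mrpl51, Fastkd3 and Fastkd5 as well, and limma on log2 FPKM called none of the 3, while it did call Ucp2.

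No gene was called by edgeR in HFD against ND in the lists of the tricarboxylic acid cycle (14 tested, 3 at an unadjusted p under 0.05, median 0.03), cytochrome c and coenzyme Q (15, 1 at that p, -0.08), assembly factors outside the naming rule (39, 3, -0.00), mitochondrial DNA transcription and replication (18, 3, -0.05), nuclear regulators of biogenesis (11, 1, 0.01), ribosomal and transfer RNA genes of the mitochondrial genome (13, 0, 0.31) and nuclear copies of mitochondrial DNA (7, 0, 0.14). Tfam, the packaging and transcription factor of mitochondrial DNA, stood at -0.16 ± 0.052 (SE; edgeR adjusted p = 0.123), and Nrf1, a nuclear activator of respiratory genes, at 0.17 ± 0.059 (0.145).

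In both SW comparisons edgeR called none of the 217 genes it tested in these lists, and limma called none either. At an unadjusted p under 0.05, edgeR had 12 in SW against ND, beside 3.44% of all genes higher and 3.37% lower. It had 21 in SW against HFD, beside 5.43% of all genes higher and 5.64% lower. The smallest p in SW against ND belonged to Mrps23 of the small ribosomal subunit, with 57.1, 57.7 and 61.9 CPM in ND, 46.5, 50.8 and 54.4 in SW and 54.6, 55.3 and 57.5 in HFD. SW lay below both other diets, and the log2 fold change of -0.20 ± 0.050 against ND had an edgeR adjusted p of 0.133, while DESeq2 gave 0.0178, its only call in these lists in either SW comparison.

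Since most nuclear members share known activators, their promoters were searched for the letters GCATGCGC (NRF1), CCGGAAG (ETS factors such as GABPA) and AAGATGGCG (YY1) on both strands. Windows of 300 bases, 250 before and 50 after the start, came from RefSeq (GRCm38.p6) and were found for 76 of 93 nuclear symbols. NRF1 letters were in 12 of 76 (15.8%) and in 3.05% of 27025 genes, ETS letters in 18 (23.7%) and 9.93%, and YY1 letters in 8 (10.5%) and 1.64%. Any of the 3 was in 31 (40.8%) and 13.6%. A match is a description of letters and not a bound site. Of the promoters shown, those of Cox6a1 and Atp5k were picked from the windows with the most matches, 3 each, so they are not typical of the members. Both hold NRF1 and ETS letters (capitals, with the NRF1 letters overlapping on both strands). Cox6a1 is the highest nuclear complex IV subunit by FPKM, and Atp5k a complex V subunit described above. Ndufab1, in which none of the 3 strings occurs, is shown as the one called member. All are written 5′ to 3′ on the gene's strand.
Cox6a1, chr5:115348909-115349208, minus strand: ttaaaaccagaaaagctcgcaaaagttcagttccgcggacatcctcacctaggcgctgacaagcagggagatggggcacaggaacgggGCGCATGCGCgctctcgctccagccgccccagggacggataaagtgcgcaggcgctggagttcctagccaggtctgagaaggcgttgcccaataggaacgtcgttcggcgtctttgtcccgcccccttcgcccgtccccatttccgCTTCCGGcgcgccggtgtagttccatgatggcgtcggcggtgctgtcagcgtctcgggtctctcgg
Atp5k, chr5:108434350-108434649, minus strand: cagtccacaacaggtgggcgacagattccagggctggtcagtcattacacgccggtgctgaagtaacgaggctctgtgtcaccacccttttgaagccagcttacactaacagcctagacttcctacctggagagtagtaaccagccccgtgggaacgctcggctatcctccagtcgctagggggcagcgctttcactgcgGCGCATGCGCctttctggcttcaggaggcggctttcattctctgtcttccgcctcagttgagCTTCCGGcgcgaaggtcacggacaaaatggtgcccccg
Ndufab1, chr7:122101799-122102098, minus strand: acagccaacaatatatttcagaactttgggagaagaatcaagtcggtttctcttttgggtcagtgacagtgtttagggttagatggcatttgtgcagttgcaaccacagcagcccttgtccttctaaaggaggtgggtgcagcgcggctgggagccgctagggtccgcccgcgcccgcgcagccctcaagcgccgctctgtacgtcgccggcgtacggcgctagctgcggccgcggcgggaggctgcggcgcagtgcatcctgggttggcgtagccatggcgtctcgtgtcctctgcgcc

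In all, and with Ndufab1 and Atp5g1 among them, 23 of the 94 nuclear members had a transcript of another locus with at least 95% identity over 100 bases or more. Pseudogenes made up 43 of the 46 such loci. In 9 members their counts exceeded 5% of the member's own, the highest share being that of Gm15920, at 110% of the counts on Ndufa12, and Atp5l had 28.3% over 10 loci. Levels of these members are uncertain to that extent.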

How the data were processed

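RNA-seq of 18 libraries of sorted spleen CD8 T cells was used, 6 per diet. The authors deposited raw counts per gene and, separately, FPKM values per gene for each library. Per the submitters' processing notes, the tool was fastp and the builds were GRCm38 and mm10. The aligner, counter, annotation and strand setting were not given in the sources used here. Deposited FPKM equalled count times a gene and a library factor for 9534 genes (largest relative departure 2.5e-09). Symbols and coordinates are from GENCODE M21, which matched 52073 of 56748 gene IDs and not the other 4675.

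Counts were tested with edgeR 4.0.16 in R 4.3.3 (quasi-likelihood, TMM, filterByExpr, robust), all 18 libraries in 1 analysis with diet as the factor. Of these, 13690 genes passed the filter, and the threshold for a call was 0.05 on p-values adjusted over all of them by Benjamini-Hochberg. The common biological coefficient of variation was 0.115. CPM are edgeR's, and errors of log2 fold changes are standard errors. The steps were tested on simulated data.

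Transcripts were aligned with blastn 2.17.0 and Biopython 1.88 (Python 3.11.15). Genes were named by rule: the mitochondrial members, per complex the 2 nuclear members of highest mean FPKM and the 2 with the smallest p among the 3 diets, called members, members with an unadjusted p under 0.05 in 2 comparisons, listed paralogs, and from each related list called genes and at most 2 with the smallest p; others named were chosen after their values were seen. Some genes of these lists are not reported here. The members and lists were chosen with earlier results of these data known. CD4 T cell and B cell libraries were not analysed here. Alternatives were DESeq2 1.42.0, limma 3.58.1 on log2(FPKM + 0.1) and log2(FPKM + 1), other size factors, filters and sets of libraries, a replicate block, and leaving out each library. One alternative, the table without mitochondrial genes, was added after the data were seen.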

Additional observations from a re-analysis of the deposited data

Results flagged for a closer look

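A gap rule for the highest or lowest of 6 libraries was applied 258 times, to members, other named genes, list sums and count shares by diet, and marked 11 values. Chance marks about 1 group in 20, and the cause of the marked values was not tested. Among members, Ndufa9 was low in HFD replicate 1 (62.13 CPM, next 73.56), Sdhc in SW replicate 1 (56.85, next 66.68) and Uqcrc2 in SW replicate 5 (104.2, next 116.4), while Sdhd was high in ND replicate 5 (73.32, next 62.8) and in SW replicate 2 (63.64, next 58.55) and Atp5g3 in HFD replicate 4 (177.3 CPM, next 151.4). Outside the members, the cytochrome c oxidase assembly gene Cox10 was high in HFD replicate 3 (41.93 CPM), the coenzyme Q synthesis gene Coq6 in SW replicate 2 (20.95), Mrps23 in ND replicate 4 (61.95) and in HFD replicate 5 (57.54), and the summed erythroid markers in SW replicate 3 (85.41 CPM, next 49.49).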

How the results depend on the processing

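Of the genes called in HFD against ND (222 as reported), DESeq2 gave 459, the 2 replicate sets as a factor 535 and limma on log2(FPKM + 0.1) 147, with 89 (without ND replicate 5) to 301 when 1 library was left out; without ND replicate 3, 4 or 6 it was 109, 130 and 132, and without HFD replicate 2, 4 or 6 127, 145 and 117. Members called there numbered 1 as reported and in every analysis without 1 library, 2 with the replicate sets as a factor and 0 in replicates 3 to 6 alone. Genes called in SW against ND (2 as reported) came to 52 with DESeq2, 1 with RLE size factors, 31 with no filter, 22 with the replicate sets, 5 in replicates 3 to 6, 19 with only those diets in the analysis, 0 with limma at either pseudocount, and 0 to 16 without 1 library. In SW against HFD (17 as reported) the counts were 108 with DESeq2, 53 with no filter, 116 with the replicate sets, 0 with only those diets, 0 with limma at either pseudocount, and 0 to 44 without 1 library. The cause of these changes was not tested.

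The replicate block, which adds the replicate number as a factor, gave 598 genes and 2 members in HFD against ND, 49 genes in SW against ND and 138 in SW against HFD. The labels do not say that the numbers pair libraries: correlations of same-numbered libraries over 18 pairs ran from -0.032 to 0.258, 9 of them over 0.1, and 5 of 18 libraries correlated best with their own number.

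Single called genes named in the text were lost in 55 of their analyses, 1 of them for Ndufab1 and the others for Ucp2, Mrpl51, Fastkd3 and Fastkd5, and calls were gained by Ndufa5 in 2 analyses and by Mrps23 and Tmem70 (a complex V assembly factor) in 1 each. Medians of the nuclear and mitochondrial members and the count shares moved by less than the spread between replicates under all alternatives, though medians near 0 changed sign, as did single uncalled genes. The median of all genes moved by at most 0.009 with the scaling. At this depth and spread between libraries, the median member's 95% interval in HFD against ND was 0.152 to either side. That interval is for a single test, without adjustment for the number of genes tested. Calls used adjusted p-values, so such a member needed a difference larger than this to be called. How much larger was not computed, and smaller differences could not be shown.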
